A study of Homo sapiens with 6 samples.

Results

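Crosslink repair and homologous recombination act mainly while or after cells copy their DNA. In the Fanconi pathway a core complex attaches ubiquitin to the FANCI and FANCD2 pair at a crosslink, nucleases then cut the crosslink out, and homologous recombination rebuilds the strand with BRCA1, BRCA2 and their partners. Mismatch repair corrects copying errors, and the kinases ATM and ATR signal damage to CHEK2 and CHEK1. Most of these genes are transcribed more in dividing cells, and hepatocytes of adult liver seldom divide.

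The genes described here are 38 genes of Fanconi repair, homologous recombination, mismatch repair and damage signalling, given as a list of names. All 38 were found by symbol, once each, among 16659 genes of the table. The libraries came from HepaRG, a human liver cancer cell line that the labels class as hepatic stem cells. RNA was sequenced from 3 libraries of wild-type cells, the control, and 3 of cells carrying a functional knockout of PXR, a nuclear receptor for drugs encoded by NR1I2. All cells were without drug treatment, and the labels do not say whether the knockout was 1 clone or whether libraries came from separate cultures, so p-values measure the spread between these libraries, which may be technical.

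Levels are in scaled CPM, a read count relative to a library size to which a scaling factor had been applied before deposit. Estimated depth was 11359210 to 20945996 reads in wild-type libraries and 28154915 to 33393111 in knockout libraries, so every knockout library was deeper. NR1I2 was at 8.24, 7.04 and 7.60 CPM in wild type and at 13.1, 13.4 and 14.3 CPM in the knockout. It was thus higher in all libraries labelled knockout, and a sum over the whole gene cannot check a functional knockout. Hepatocyte markers, 8 genes that include ALB and APOA1, summed to 2280 to 2358 CPM in wild type and to 42876 to 44065 CPM in the knockout. All 8 were higher in the knockout, ALB from 827 to 895 CPM up to 32427 to 33404 CPM. In sum, 4 of 6 listed bile duct markers were at 489 to 515 CPM in wild type and 373 to 399 CPM in the knockout, and 6 of 7 stellate markers at 46.0 to 47.3 and 75.4 to 77.8 CPM. Endothelial markers (2 of 5, nearly all KDR) were at 54.8 to 55.1 and 215 to 222 CPM, and macrophage markers (3 of 6) at 13.6 to 16.8 and 22.7 to 24.1 CPM. These sums hide genes that were lower in the knockout. PECAM1, an endothelial marker, had a knockout mean of 0.35 CPM against 1.58 CPM in wild type. For CD14, a macrophage marker, the means were 1.55 and 2.03 CPM. Knockout means were higher for CD68 (19.0 against 11.3 CPM) and LYZ (2.93 against 2.21 CPM). Single markers of a list went opposite ways: SPP1 fell from 382 to 43.6 CPM while KRT19 rose from 111 to 334 CPM among bile duct markers, and DES fell from 18.5 to 1.18 CPM while ACTA2 rose from 8.90 to 55.7 CPM among stellate markers. No listed marker in the table was at 0. In bulk RNA, fewer cells of a type and less RNA per cell cannot be told apart.

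As a group the repair genes were lower in the knockout. Of the 38, 34 fell (89.5%) and 4 rose (limma with Benjamini-Hochberg adjustment over 16219 genes, adjusted p at most 0.0225 for each). In the background, 79.9% of all tested genes passed the same test, and of all tested genes 39.6% were lower and 40.3% higher in the knockout. A fall of at least 2-fold was seen for 19 members (50%) against 10.1% of all tested genes, and a rise of that size for 1 member (2.63%) against 12.6%. The median log2 change of the members was -0.99, with quartiles at -1.45 and -0.40, while that of all tested genes was 0.01. The groups did not overlap at any of the 38, and they did not at 80.8% of all tested genes. Each member was above the filter on low values in every library, with 67 to 6440 estimated reads, so none entered through 1 group alone.

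**Figure D1:**
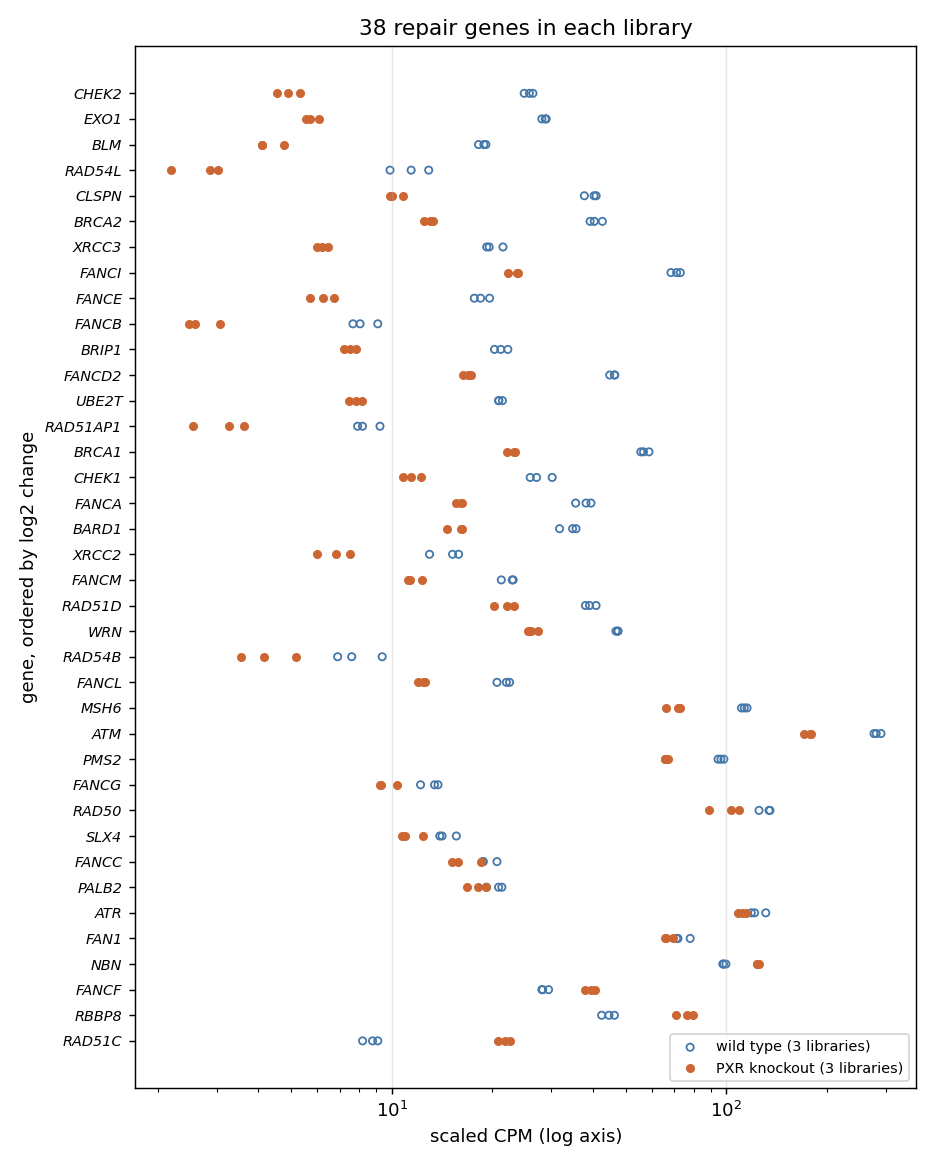
Scaled CPM (log axis) of the 38 repair genes in each library, with open circles for 3 wild-type and filled circles for 3 knockout libraries, genes ordered by log2 change from the largest fall (CHEK2) to the largest rise (RAD51C). In 34 genes all knockout circles lie left of the wild-type circles, and in NBN, FANCF, RBBP8 and RAD51C they lie right of them; the gaps at FANCC, PALB2, ATR and FAN1 are narrow.

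Promoters were searched because many genes of DNA replication and repair are known targets of E2F factors, whose sites lie close to the start. RefSeq windows on GRCh38.p14, from 250 bases before to 50 after each start, were matched for 34 members. The E2F letters searched were TTTCCCGC, TTTCGCGC, TTTGCCGC and TTTGGCGC on both strands. They stood in a window of 8 of the 34 members (23.5%), against 3.99% of 27305 genes in the promoter table, 6.42% of 11147 tested genes and 7.53% of the tested genes that were lower in the knockout. Of the 18 members with a window that were lower by at least 2-fold, 5 held the letters, and of the other 16, 3 did. The cell cycle homology letters, TTTGAA or TTCGAA, stood in 4 of the 34 (11.8%: ATM, BRIP1, FANCC and UBE2T) against 19.5% of the table, 16.5% of tested genes and 16.9% of tested genes that were lower. These shares are descriptions, and a match is not a shown binding site. RAD51C, RBBP8 and FANCF, which rose, held neither motif, which says only that these letters are not in these windows. Each E2F match follows within 30 bases of its window, 5′ to 3′ on the gene's strand, with the matching letters in capitals.
CLSPN (chr1:35769965-35769994, minus strand): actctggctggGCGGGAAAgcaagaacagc
EXO1 (chr1:241848197-241848226, plus strand): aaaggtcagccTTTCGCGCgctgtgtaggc
FANCD2 (chr3:10026424-10026453, plus strand): cgtcgggcctgGCGGGAAAgtcgaaaacta
FANCA (chr16:89816801-89816830, minus strand): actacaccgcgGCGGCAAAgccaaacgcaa
XRCC2 (chr7:152676102-152676131, minus strand): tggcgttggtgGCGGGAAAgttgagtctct
MSH6 (chr2:47783137-47783166, plus strand): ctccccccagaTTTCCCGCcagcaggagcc
PMS2 (chr7:6009131-6009160, minus strand): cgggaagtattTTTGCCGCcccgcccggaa
FANCC, first (chr9:95317737-95317766, minus strand): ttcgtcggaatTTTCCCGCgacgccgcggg
FANCC, second (chr9:95317863-95317892, minus strand): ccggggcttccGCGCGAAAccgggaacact

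The CLSPN, FANCD2, XRCC2 and FANCA matches read GCGGGAAA or GCGGCAAA, the E2F letters on the opposite strand. Matches in CLSPN, EXO1, FANCD2 and MSH6 began within 5 bases of the start, and that of FANCA 172 bases before it. CLSPN, EXO1, FANCD2, FANCA and XRCC2 fell at least 2-fold, while FANCC, with both matches, had a log2 change of -0.23.

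Homologous recombination genes fell at 10 of 11 members, with a median log2 change of -1.09. Beside this group and the role groups below, 39.6% of all tested genes were lower and 40.3% higher. BRCA1 (ENSG00000012048.22, chr17:43044295-43170245 in GRCh38), the ubiquitin ligase that directs breaks to recombination, was at 56.6, 58.7 and 55.5 CPM in wild type and at 23.2, 22.1 and 23.4 CPM in the knockout. All knockout libraries were below all wild-type libraries, a log2 change of -1.30 ± 0.045 (SE, limma adjusted p = 2.8e-12). BARD1, the obligate partner of BRCA1, was at 31.8, 35.6 and 34.7 CPM against 16.3, 16.1 and 14.6 CPM. Its groups were as clearly apart, with a log2 change of -1.09 ± 0.063. BRCA2 (chr13:32315474-32400266), which loads the recombinase onto single-stranded DNA, went from 42.6, 40.3 and 39.2 CPM to 12.5, 13.0 and 13.3 CPM. That was a log2 change of -1.62 ± 0.055 (limma adjusted p = 2.7e-12).

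PALB2, which bridges BRCA1 and BRCA2, differed little. Its levels were 21.4, 19.2 and 20.9 CPM in wild type and 19.1, 16.8 and 18.1 CPM in the knockout, so that the highest knockout library nearly met the lowest wild-type library. The log2 change of -0.18 ± 0.067 had a limma adjusted p of 0.0225, the largest among the 38. The call was lost without wild-type library 1 (adjusted p = 0.0648), without wild-type library 3 (0.0634) and without knockout library 2 (0.111).

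RAD54L, a motor protein that helps strand invasion, fell most in this group. Its levels were 9.89, 11.4 and 12.9 CPM against 2.19, 3.04 and 2.86 CPM, a log2 change of -1.90 ± 0.13. RAD54B, its relative, changed by -0.82 ± 0.14 from a mean of 7.96 to 4.29 CPM, the least precise change among the members. FSBP, annotated on the same strand within RAD54B, had a log2 change of 0.87, and reads could be split between both, so the level of RAD54B is uncertain. RAD51AP1, an accessory factor of strand exchange, changed by -1.30 ± 0.12, from 8.44 ± 0.70 to 3.15 ± 0.55 CPM (SD, n = 3 each).

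The recombinase paralogs, which assist assembly of the filament on DNA, went in different directions. RAD51C (ENSG00000108384.15, chr17:58692573-58735611) was the only member to rise by at least 2-fold, from 8.19, 9.10 and 8.77 CPM to 22.6, 20.7 and 21.8 CPM. All knockout libraries were above all wild-type libraries, with a log2 change of 1.27 ± 0.071 (limma adjusted p = 5.9e-10). XRCC3, which forms a complex with RAD51C, fell from 21.5, 19.2 and 19.6 CPM to 6.22, 6.47 and 5.98 CPM, a log2 change of -1.62 ± 0.078. RAD51D and XRCC2, which join RAD51C in the other paralog complex, had log2 changes of -0.83 ± 0.056 and -1.06 ± 0.10. XRCC2 lies on chromosome 7, where the median change of other genes in the surrounding 20 Mb was 0.41.

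Helicases and factors of end resection also split, with 4 of 6 lower and 2 higher. EXO1 (ENSG00000174371.17), an exonuclease of resection and mismatch repair, was at 28.1, 28.8 and 28.97 CPM in wild type and at 6.07, 5.56 and 5.69 CPM in the knockout. This change of -2.22 ± 0.069 (limma adjusted p = 9.9e-13) was among the largest of the 38. BLM, the helicase lost in Bloom syndrome, went from 18.2, 18.9 and 19.1 CPM to 4.76, 4.09 and 4.10 CPM, a log2 change of -2.00 ± 0.086. WRN, the helicase of Werner syndrome, had a log2 change of -0.83 ± 0.043, from 47.2 ± 0.36 to 26.3 ± 0.88 CPM.

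Genes that start resection at a break went in different directions. RBBP8, which encodes the resection factor CtIP, rose from 44.6, 46.3 and 42.4 CPM to 79.3, 70.9 and 76.3 CPM (log2 change 0.76 ± 0.046, limma adjusted p = 1.8e-09). NBN, the regulatory subunit of the break-sensing nuclease complex, was at 98.1, 99.7 and 97.6 CPM in wild type and at 123, 124 and 125 CPM in the knockout. Its rise was small, 0.33 ± 0.028, and larger than the spread in either group. RAD50, the ATPase of the same complex, had a log2 change of -0.39 ± 0.059, and knockout library 2, at 88.7 CPM, was below the others at 104 and 109 CPM. MRE11, the nuclease of the complex, is outside the 38 and fell from 54.9 ± 2.5 to 33.9 ± 1.5 CPM (-0.69 ± 0.047, limma adjusted p = 6.0e-09).

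Of 11 genes of the Fanconi core complex and its substrate, 10 fell, with a median log2 change of -1.21. FANCD2 (ENSG00000144554.10, chr3:10026414-10101930), the protein that carries the ubiquitin mark, was at 46.4, 46.3 and 44.8 CPM against 16.9, 17.2 and 16.4 CPM. Its partner FANCI went from 68.3, 72.9 and 71.0 CPM to 23.7, 22.2 and 23.9 CPM. Both fell in every knockout library, with log2 changes of -1.42 ± 0.048 for FANCD2 and -1.58 ± 0.045 for FANCI (limma adjusted p = 2.2e-12 and 3.5e-13). UBE2T, the conjugating enzyme that delivers the ubiquitin, changed by -1.37 ± 0.069, and FANCL, the ligase of the core complex, by -0.79 ± 0.063.

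Other core subunits covered a wide range. FANCE, which bridges the core to FANCD2, changed by -1.51 ± 0.083, FANCB by -1.45 ± 0.11 and FANCA by -1.21 ± 0.055. FANCM, the translocase that anchors the core on DNA, changed by -0.92 ± 0.067, from 22.4 ± 1.0 to 11.6 ± 0.62 CPM. FANCG, a subunit that binds FANCA, changed by -0.43 ± 0.081, although other genes in the 20 Mb around it had a median of 0.50. FANCC was at 18.8, 18.7 and 20.6 CPM in wild type and at 15.1, 15.7 and 18.5 CPM in the knockout, so that knockout library 3 almost reached wild type. Its log2 change of -0.23 ± 0.078 (limma adjusted p = 0.0142) did not pass without wild-type library 3 (0.0637) or without knockout library 1 (0.0686).

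FANCF (chr11:22622890-22625841), the adaptor subunit of the core complex, was the core gene that rose. Its levels were 28.3, 29.4 and 28.1 CPM in wild type and 39.5, 37.8 and 40.5 CPM in the knockout, a log2 change of 0.45 ± 0.046 (limma adjusted p = 5.0e-07). Other tested genes in the 20 Mb around it had a median change of 0.43. With that median taken out, the change of FANCF was 0.02 (limma adjusted p = 0.772) and did not pass the test.

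Downstream of the ubiquitin mark, BRIP1, a helicase that binds BRCA1, fell from 21.2, 20.3 and 22.2 CPM to 7.84, 7.22 and 7.53 CPM (log2 change -1.44 ± 0.072). The nuclease genes had log2 changes nearer to 0. SLX4, a scaffold for nucleases that cut crosslinks, changed by -0.34 ± 0.080, and FAN1, a nuclease recruited by FANCD2, by -0.13 ± 0.041 (limma adjusted p = 0.0080). FAN1 was at 71.1, 78.0 and 71.7 CPM against 65.7, 66.1 and 69.1 CPM. With the median of its 20 Mb surroundings taken out, FAN1 was at -0.02 (adjusted p = 0.593) and PALB2 at -0.09 (adjusted p = 0.243), and neither passed the test.

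The mismatch repair genes both fell by less than 2-fold. MSH6, which recognises mispaired bases, was at 113, 111 and 115 CPM in wild type and at 72.6, 66.0 and 71.8 CPM in the knockout, a log2 change of -0.69 ± 0.038 (limma adjusted p = 6.0e-10). PMS2, the endonuclease that nicks the faulty strand, went from 98.3, 94.5 and 96.3 CPM to 67.0, 65.7 and 65.6 CPM, a log2 change of -0.54 ± 0.032. The annotation names 11 pseudogenes of PMS2, of which 7 are in the table, so estimated counts may be shared between them and the level of PMS2 is uncertain. PMS2 also lies on chromosome 7, in surroundings with a median change of 0.40.

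All 5 damage signalling genes fell, with log2 changes from -2.27 to -0.15. ATM (chr11:108222484-108369102), the kinase activated by breaks, was at 276, 280 and 290 CPM in wild type and at 178, 171 and 179 CPM in the knockout, a log2 change of -0.68 ± 0.029. ATR, the kinase of stalled forks, went from 119, 131 and 121 CPM to 114, 108 and 112 CPM, a log2 change of only -0.15 ± 0.038 (limma adjusted p = 0.0024). CLSPN encodes claspin, the adaptor through which ATR activates CHEK1, and it fell from 40.3, 37.7 and 40.8 CPM to 9.91, 10.8 and 10.1 CPM (-1.90 ± 0.060). CHEK1 itself was at 27.1, 30.2 and 25.9 CPM against 10.8, 11.4 and 12.2 CPM, a log2 change of -1.24 ± 0.072.

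CHEK2 (ENSG00000183765.21, chr22:28687743-28742422), the effector kinase downstream of ATM, had the largest fall of the 38. Its levels were 24.9, 25.8 and 26.4 CPM in wild type and 5.32, 4.92 and 4.55 CPM in the knockout, a log2 change of -2.27 ± 0.079 (limma adjusted p = 3.0e-12). It lies on chromosome 22, where the median change of all tested genes was -0.77, and other genes in the 20 Mb around CHEK2 had a median of -0.73. With this median taken out, its change was -1.54 and no longer the largest: BLM was at -2.05, EXO1 at -2.00, and RAD54L and CLSPN at -1.80. The annotation names 4 pseudogenes of CHEK2, which makes its level less certain, although 0 of them are in the table. It also names 1 each of FANCD2, RBBP8 and RAD51AP1, with 0 in the table. CHEK1, BRCA1, RAD50 and FAN1 each overlap another gene of the table on the same strand, so reads may be split there too.

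**Figure D2:**
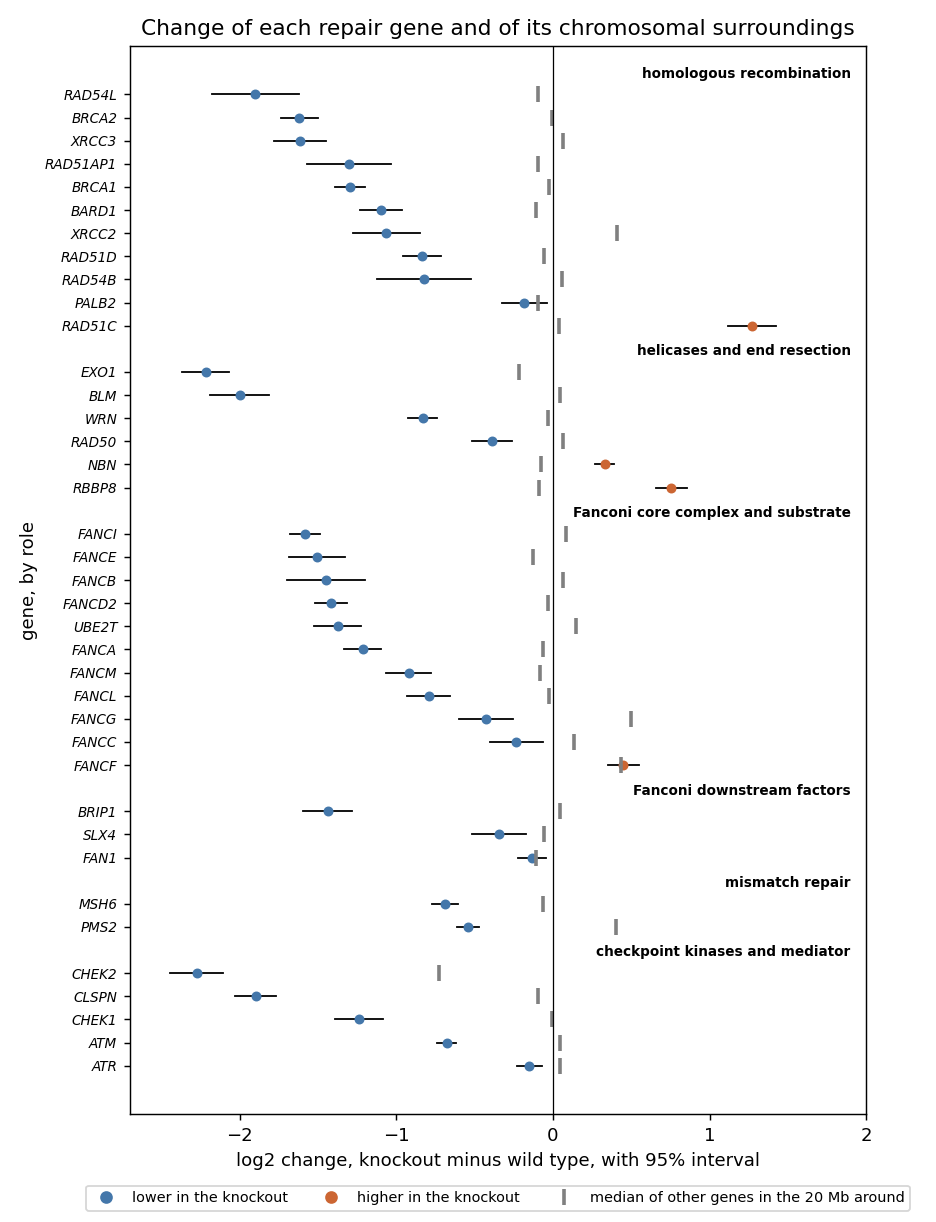
Log2 change (knockout minus wild type, horizontal axis) of each repair gene grouped by role, with its 95% interval from limma, and a grey tick for the median change of other tested genes in the 20 Mb around it. Points of 34 genes lie left of 0; the tick is near 0 for most genes, at -0.73 for CHEK2, and at 0.43 for FANCF, where it meets the point.

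For 33 of the 38 genes the median change in the surrounding 20 Mb lay between -0.22 and 0.15. The exceptions were CHEK2, FANCF, XRCC2, PMS2 and FANCG, whose values are given above. With all window medians taken out, 32 members fell and 3 rose, and 40.4% of all tested genes were lower and 39.3% higher.

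Ratios between genes that work together were compared per library for 11 pairs, chosen after their values were seen, with an exact two-sided permutation test over the libraries. With 3 libraries against 3 the exact permutation test cannot go below p = 0.1, which each of the 11 pairs reached (0.1 also after Benjamini-Hochberg adjustment), so none could pass 0.05. The largest difference was that of XRCC3 over RAD51C, whose log2 ratio was 1.17 ± 0.16 in wild type and -1.72 ± 0.10 in the knockout (SD, n = 3 each; exact permutation p = 0.1). RAD51C over RAD51D differed by 2.11 ± 0.11 (SE), FANCF over FANCE by 1.96 ± 0.069 and PALB2 over BRCA2 by 1.44 ± 0.085. Medians of the surrounding 20 Mb, 0.43 for FANCF and -0.13 for FANCE, were not taken out of the ratios. Differences were smallest for FANCI over FANCD2, at -0.16 ± 0.062, and BARD1 over BRCA1, at 0.20 ± 0.080. For BARD1 over BRCA1 the nearest libraries of the groups were at -0.67 and -0.66, and for FANCI over FANCD2 at 0.55 and 0.53.

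**Figure D3:**
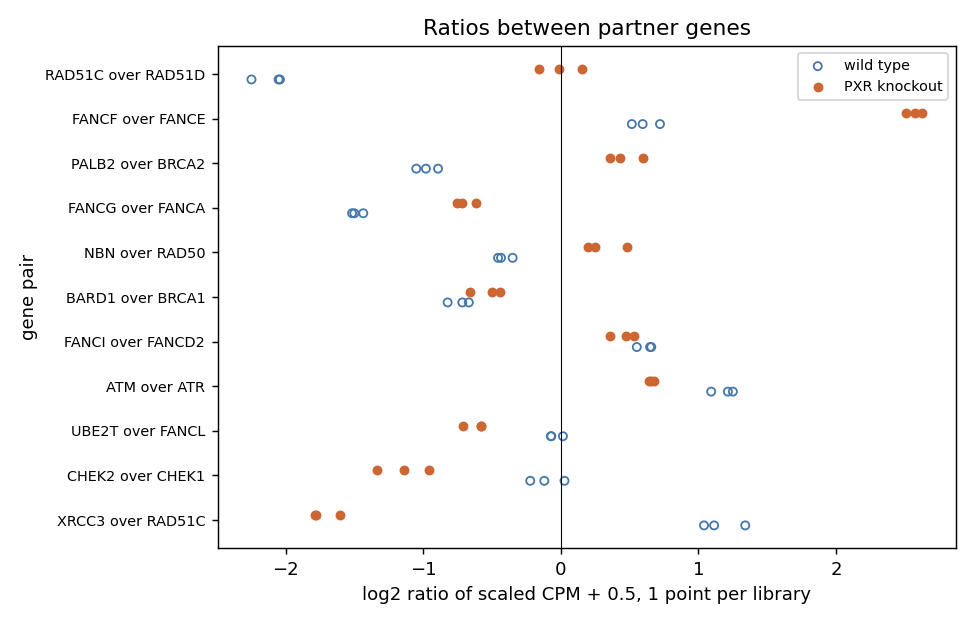
Log2 ratio of scaled CPM + 0.5 between partner genes (horizontal axis) in each library, open circles for wild type and filled circles for the knockout, ordered by the difference between groups. The groups lie far apart for XRCC3 over RAD51C (a difference of -2.89), and nearly touch for BARD1 over BRCA1 and FANCI over FANCD2; levels are not per length, so only differences between groups can be read.

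Repair pathways outside the 38 were set beside them through lists of genes, described by counts with no test of a list. Of all tested genes, 39.6% were lower and 40.3% higher. Of 45 other Fanconi and recombination genes, 35 fell and 5 rose, with a median log2 change of -0.46. UHRF1, which takes part in crosslink recognition, fell from 43.9 ± 3.0 to 8.43 ± 0.93 CPM, and MCM8, a helicase of recombination, from 47.6 ± 2.2 to 13.0 ± 1.7 CPM. Of 19 other damage checkpoint genes, 13 fell and 4 rose (median -0.70). CDC25A, a phosphatase that CHEK1 targets, had a log2 change of -2.60 ± 0.11, and PPM1D, a phosphatase that turns the damage signal off, rose by 1.95 ± 0.070. Of 11 other mismatch repair genes, 9 fell and 1 rose (median -0.24). The rise was that of POLD4, a small subunit of a replicative polymerase, at 0.93 ± 0.041.

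Lists of other repair pathways had medians between -0.35 and 0.03. Their counts stand beside 39.6% lower and 40.3% higher among all tested genes, or 47.5% and 32.9% with columns scaled to equal sums. Scaling columns to equal sums, which moved the median of all tested genes to -0.12, gave 9 lower and 3 higher end joining genes, 15 and 4 of base excision repair, 12 and 7 of nucleotide excision repair, and 4 and 2 of translesion synthesis. End joining genes fell at 9 and rose at 4 of 15 (median -0.35), with PRKDC, its catalytic kinase, falling from 1033 ± 12 to 385 ± 9.3 CPM. Base excision repair genes fell at 13 and rose at 6 of 21 (median -0.26). FEN1, the flap nuclease also used in replication, had a log2 change of -1.75 ± 0.042, and APTX, which clears stalled ligation ends, one of 0.76 ± 0.054. Nucleotide excision repair genes fell at 9 and rose at 10 of 23 (median 0.03), near the shares of all tested genes. DDB2 and XPC, which sense bulky lesions, rose by 3.50 ± 0.064 and 1.25 ± 0.033. Translesion synthesis genes fell at 4 and rose at 4 of 8 (median -0.02), also near the shares of all tested genes. POLH, a polymerase that bypasses ultraviolet damage, rose by 1.59 ± 0.052.

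Proliferation markers fell at all 17 tested genes (median -1.30), beside 39.6% lower and 40.3% higher among all tested genes. MKI67 went from 114 ± 7.9 to 50.7 ± 3.0 CPM and TOP2A from 293 ± 5.7 to 125 ± 3.9 CPM. Of 20 regulators of the E2F and DREAM complexes, which switch cell cycle genes on and off, 16 fell and 1 rose (median -0.82). The rise was that of E2F7 (0.48 ± 0.080), whose 20 Mb surroundings had a median of 0.37, and with window medians taken out 0 of the regulators rose. MYBL2 had a log2 change of -2.36 ± 0.089, E2F1 of -1.55 ± 0.080, RBL1 of -1.31 ± 0.055, FOXM1 of -1.24 ± 0.087 and E2F4 of -1.06 ± 0.037. RB1 was at -0.12 ± 0.039 (limma adjusted p = 0.0132), and RBL2 at -0.01 ± 0.034 did not pass (0.755). The proliferation markers fell and the 8 hepatocyte markers rose in the same libraries in which the repair genes fell, and their part in the result was not tested.

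**Figure D4:**
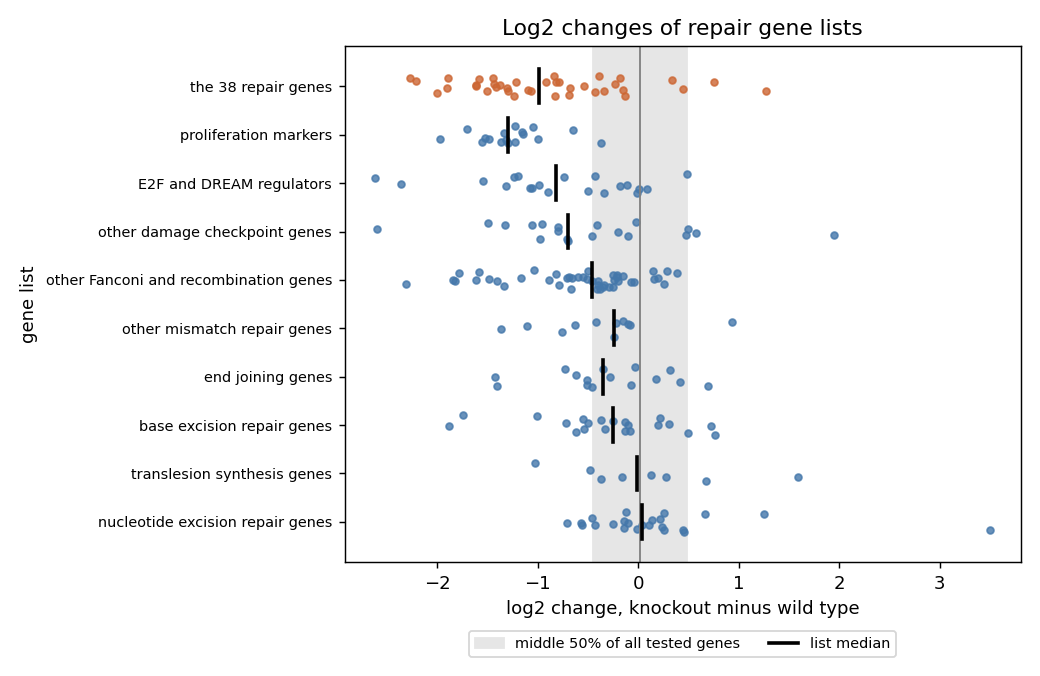
Log2 change (knockout minus wild type, horizontal axis) of each gene in the 38 repair genes and in 9 other lists, with a black bar at each list's median and a grey band for the middle 50% of all tested genes. The medians of the 38 (-0.99), proliferation markers (-1.30), E2F and DREAM regulators (-0.82) and other damage checkpoint genes (-0.70) lie left of the band. That of other Fanconi and recombination genes (-0.46) lies at its left edge, and those of translesion synthesis (-0.02) and nucleotide excision repair (0.03) at its centre.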

How the data were processed

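RNA of 6 libraries, 3 per group by their titles, was analysed from 1 deposited table of 16673 rows. Although named for log2 CPM, the deposited values are a linear signal, here called scaled CPM, since columns sum to 936409 to 947974 in wild type and 1028470 to 1042826 in the knockout. Per the submitters' processing notes, the tools included Bowtie2, Trim Galore, FastQC, limma and edgeR, and the build was hg38; tool versions were not given. Sample titles begin with RSEM, which estimates counts. Libraries were made with a stranded mRNA kit, per the labels' protocols. Values stepped in hundredths of a read, which gave the depths; 67.2% to 76.3% of values below 20 reads were within 0.006 of a whole read, so no count test was used.

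In all, 14 repeated pseudoautosomal rows were left out. Coordinates are from GENCODE 29 on GRCh38. Genes with scaled CPM above 1 in at least 3 of 6 libraries were tested on log2(scaled CPM + 0.5), which understates changes of low genes, with limma 3.58.1 in R 4.3.3 (group model, empirical Bayes with trend, two-sided, Benjamini-Hochberg over all genes tested, threshold 0.05); log2 changes are knockout minus wild type. The fit was run on simulated data with few changed genes and the same extra spread between replicates for every gene. That setting differs from these data, in which 79.9% of tested genes passed, so it cannot vouch for the calls here. Replicate pairs differed by more than sampling noise (mean chi-square per gene 2.25 to 9.95) and each library counted as 1 replicate. Pandas 2.3.3 and matplotlib 3.10.9 handled tables and figures.

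The members and lists were chosen with earlier results of these data known. The named genes are all 38 members, up to 2 of the largest rises and falls of each other list, NR1I2 and set regulators; some genes the rule takes are not described, and neighbouring genes were named after their values were seen. Alternatives covered the pseudocount, filter, scaling, trend, library weights, replicate block, surroundings and each library left out.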

Additional observations from a re-analysis of the deposited data

How the results depend on the processing

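Across 16 alternatives, no member changed direction, and 600 of 608 values of single members kept their call; the 8 lost calls were those of PALB2 (4), FANCC (2), FANCF (1) and FAN1 (1) described above. The count of members that fell was 34 in the main analysis and ranged from 32 to 34 with each library left out in turn, while 4 rose in each. The members' median log2 change, -0.99, was -0.88 with a pseudocount of 2 and -1.12 with columns scaled to equal sums, which moved the median of all tested genes from 0.01 to -0.12 and so shifted every gene. That scaling gave 7705 lower and 5342 higher genes in all, against 6426 and 6534. Of the other named genes, RBL2 (-0.01) was at 0.011 with window medians taken out and between -0.037 and 0.0018 with each library left out, without passing the test, and at -0.15 (adjusted p = 0.0013) with equal sums. Equal sums also left 2 rises, from 5, among other Fanconi and recombination genes, and 2, from 4, in translesion synthesis; with window medians taken out, 0 E2F and DREAM regulators rose, from 1. RB1 lost its call without the mean-variance trend (adjusted p = 0.0656) and without wild-type library 2 (0.0502), wild-type library 3 (0.0681) or knockout library 2 (0.0557). Same-numbered libraries of both groups did not deviate together (correlations of -0.020, -0.061 and 0.025). With 3 libraries per group this cannot settle whether the numbers pair them. With the replicate block 34 members fell and 4 rose, with 6398 lower and 6518 higher genes in all. Members rested on at least 67 estimated reads per library, so depth limits mainly RAD54B, FANCB, RAD51AP1 and RAD54L.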

Other observations

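Many repair genes share a start region with a gene on the other strand. For 12 tested partners whose annotated start lies within 1 kb of a member's start, 6 passed the test in the member's direction, 4 in the opposite direction and 2 did not pass. Starts here are the outer gene ends in GENCODE 29. For some members they lie far from the RefSeq starts of the promoter windows, as for MSH6 (47695530, with its promoter match at 47783137). Partners at those other starts may be missed. Of all tested genes 39.6% were lower and 40.3% higher, so 6 of 12 is near the background. NPAT, a histone gene activator that starts 158 bases from ATM, fell from 49.5 ± 2.4 to 28.7 ± 1.6 CPM (log2 change -0.78 ± 0.052), beside -0.68 for ATM. HSCB, an iron-sulphur chaperone gene next to CHEK2 on chromosome 22, changed by -0.83 ± 0.11. GAS2, which starts 332 bases from the rising FANCF, rose by 0.95 ± 0.065. ZFYVE21, 226 bases from XRCC3, rose by 0.52 ± 0.048 where XRCC3 fell by 1.62 on the log2 scale. NBR1, 236 bases from the outer BRCA1 gene end, rose by 0.19 ± 0.031, but that end need not be the main BRCA1 promoter. NBR2, annotated as a bidirectional promoter RNA gene, overlaps BRCA1 on the other strand. Its start lies 44635 bases from that end, so it is not among the 12, and its log2 change was 0.32 ± 0.12 (limma adjusted p = 0.0266). MOSPD2 and CIDECP, next to FANCB and FANCD2, which fell, rose by 0.19 ± 0.061 and 0.33 ± 0.10. C12orf4, DCTN5 and DNASE1, partners of RAD51AP1, PALB2 and SLX4, had log2 changes of -0.47, -0.26 and -0.28. These partners were chosen after their values were seen.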
